A study of Triticum aestivum with 12 samples.

Results

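On the short arm of wheat chromosome 6B, 3 runs of neighbouring gene models were lower in cold-acclimated plants after freezing (LTAF) than in unacclimated plants after freezing (NTGF), and they were selected on that contrast. The members are all high-confidence models whose identifiers run from TraesCS6B01G047400 to TraesCS6B01G051900 (31 models), from TraesCS6B01G077900 to TraesCS6B01G080700 (25 models) and from TraesCS6B01G081600 to TraesCS6B01G088900 (46 models). These are 102 of the 128497 models in the table and of the 3359 high-confidence models on 6B. Of the 102, 59 had enough reads for a fit (21, 17 and 21 in the first, second and the third run). The other 43 had at most 23 counts in any library and together 47 to 146 counts per library, so the results below are those of the 59 and not of all members.

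The 12 libraries came from crowns of the winter wheat cultivar Jing411, in 4 groups of 3 libraries labelled as biological replicates. LTAF plants had 28 days at 4 °C and then 24 hours at -5 °C, and LTA plants had 28 days at 4 °C alone. NTGF plants had 28 days at 20 °C and then 24 hours at -5 °C, and NTG plants had 28 days at 20 °C alone. The labels' tissue field reads SEEDING while the extraction protocol names the crown, and this could not be checked against crown markers because the identifiers carry no gene names. The labels do not say whether a library holds 1 crown or several.

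Bread wheat is hexaploid, with A, B and D subgenomes that carry near-identical copies of most genes, and reads can match more than one copy. The crown is the stem base that holds the shoot meristem, and its survival decides whether a winter wheat plant regrows after frost. Cold acclimation is the gain in freezing tolerance during weeks of low, non-freezing temperature, with slower growth and broad changes in transcript levels. The short arm of 6B is known for a gliadin storage protein locus, a nucleolus organiser and the grain protein gene NAM-B1, none of which is matched here to an identifier. Numbers in the identifiers of high-confidence models follow gene order along the chromosome.

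Total counts per library ran from 17871036 to 21491305, and the 102 members took 0.0162% to 0.313% of them. In LTAF the share was 0.0263%, 0.0802% and 0.0162% in replicates 1, 2 and 3, and in LTA it was 0.0642%, 0.0633% and 0.0823%. In NTGF it was 0.313%, 0.0664% and 0.14%, and in NTG it was 0.173%, 0.267% and 0.26%. LTAF replicate 2 stood with the LTA libraries and above the other LTAF libraries, and NTGF replicate 1 was the highest of all 12, so both are given apart below. They also varied together over all tested models, where their deviations from the group means correlated at r = 0.437. LTAF replicate 3 and NTGF replicate 2 did so at r = 0.394. The likeness of these libraries is therefore not particular to the members. Reads carry no molecular identifiers, so they are not independent molecules. In bulk tissue, fewer cells of a type and less RNA per cell cannot be told apart.

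All 3 runs had the same order of group means, from LTAF at the bottom through LTA and NTGF to NTG. Levels here are means over a run's tested members of log2 CPM, where CPM (a read count relative to library size) uses the TMM-adjusted library size. The first run averaged 1.32 ± 1.08 in LTAF, 2.37 ± 0.09 in LTA, 3.25 ± 0.60 in NTGF and 3.62 ± 0.16 in NTG (SD, n = 3 each). The second run averaged 1.55 ± 0.60 in LTAF, 2.14 ± 0.12 in LTA, 3.39 ± 0.42 in NTGF and 3.44 ± 0.17 in NTG. The third run averaged 0.83 ± 1.45 in LTAF, 2.13 ± 0.23 in LTA, 3.08 ± 0.96 in NTGF and 3.48 ± 0.33 in NTG. Within each run the spread was wider in both frozen groups than in either group without freezing.

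Within the frozen groups the libraries fell in the same order in each run. The first run was at 1.11, 2.49 and 0.37 log2 CPM in LTAF replicates 1, 2 and 3, and at 3.86, 2.66 and 3.22 in NTGF replicates 1, 2 and 3. The third run was at 0.76, 2.32 and -0.58 in LTAF, against 4.07, 2.16 and 3.02 in NTGF. In the third run LTAF replicate 2 was above NTGF replicate 2, so these groups overlapped there. In the second run the values were 1.5, 2.17 and 0.98 in LTAF and 3.76, 2.93 and 3.47 in NTGF, with no overlap.

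The contrast that chose the members gave run means of -1.93, -1.84 and -2.25 log2 units for LTAF minus NTGF. Without LTAF replicate 2 they were -2.52, -2.16 and -3.00, and without LTAF replicate 3 they were -1.45, -1.56 and -1.55. Of the 59 tested members 32 were called lower, where 19.6% of all tested models were, and 1 was called higher, where 20.2% were. Since the same contrast set the rule, these counts describe the choice. Leaving out LTAF replicate 1 gave 12 lower calls (background 13.2%) and leaving out LTAF replicate 2 gave 43 (background 23.2%).

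**Figure D1:**
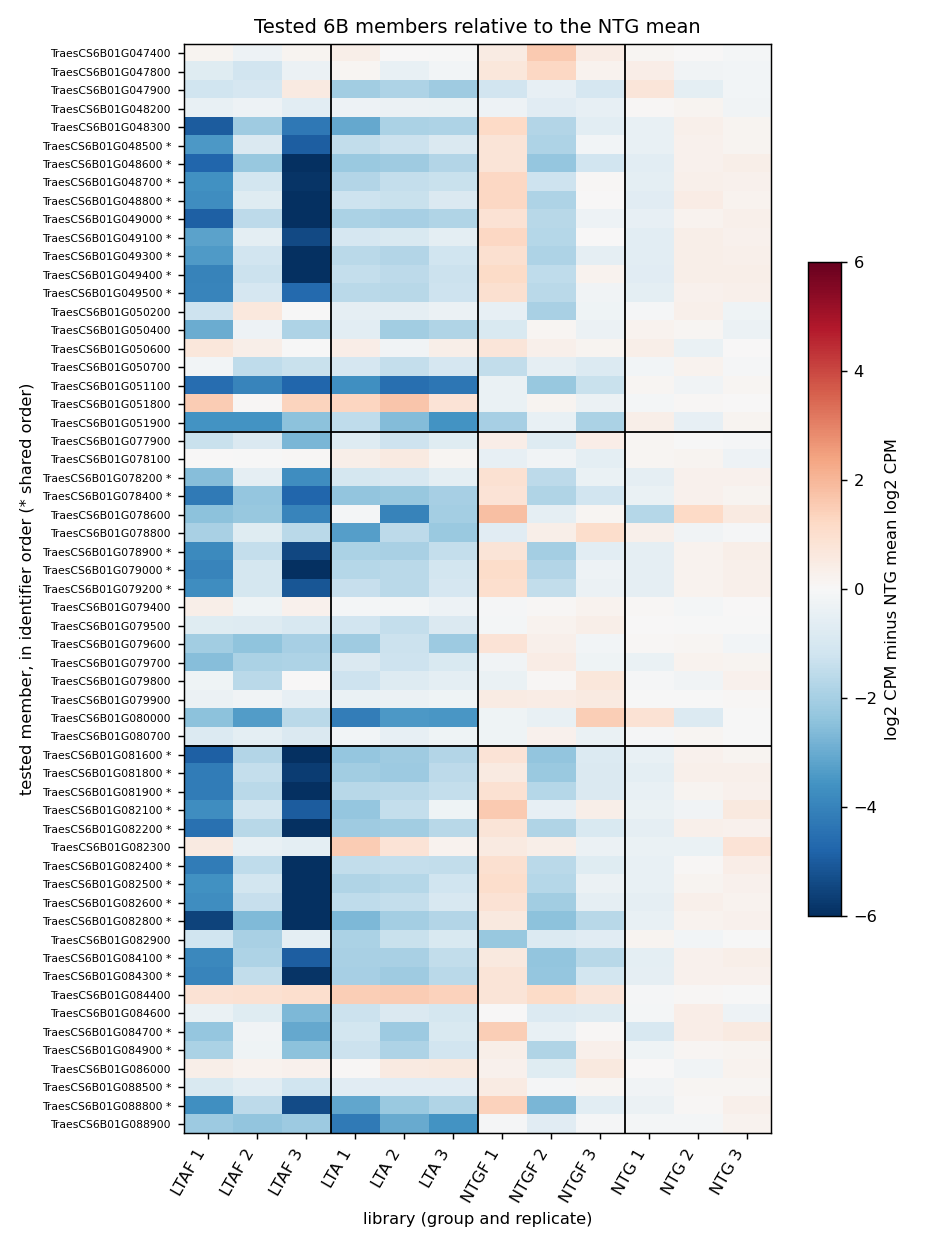
Log2 CPM of each of the 59 tested members (rows, in identifier order, with lines between the 3 runs) in each of 12 libraries (columns), minus the member's mean over the NTG libraries; colours are clipped at 6 log2 units. Asterisks mark the 29 members that are lowest in LTAF replicate 3 and highest in NTGF replicate 1, most of which are dark in LTAF replicates 1 and 3 and paler in LTAF replicate 2.

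The tested members were split in 2 sets by which libraries were lowest and highest, not by the size of the spread. In 29 of the 59 tested members (9, 5 and 15 per run) LTAF replicate 3 was the lowest of the 12 libraries and NTGF replicate 1 the highest. This order was found in 6.42% of all tested models and in 6.1% of the other tested high-confidence models of 6B. Among tested high-confidence models numbered under 100000 it was found in 12.9% on 6A and 9.8% on 6D. The remaining 30 members did not have this order. Within the frozen groups alone, 32 members had LTAF replicate 3 lowest and replicate 2 highest together with NTGF replicate 2 lowest and replicate 1 highest, as 8.2% of all tested models did. The split was made after the values were seen and uses the libraries of the choosing contrast, so it is a description without a test.

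The mean over the 29 members with the shared order had the wide spread between replicates. Their mean log2 CPM was 1.37, 3.83 and -0.45 in LTAF replicates 1, 2 and 3, and 3.36, 3.40 and 3.85 in LTA. It was 6.04, 3.37 and 4.63 in NTGF, and 4.59, 5.35 and 5.40 in NTG. NTG replicate 1 was the lowest NTG library in all 29, where it was so in 35.1% of all tested models. A common order of replicates was therefore not limited to the frozen groups. The place of LTAF replicate 3 at the bottom and of NTGF replicate 1 at the top is the definition of the set. LTAF replicate 1 was below every LTA library in all 29, whereas LTAF replicate 2 was above every LTA library in 18 of them. NTGF replicate 2 was below every NTG library in 27. The shares of all tested models with these places were not counted. The split used LTAF and NTGF libraries, so these counts are bound up with it and nothing is read from them. In the 26 of the 29 with a mean of at least 5 CPM, NTGF replicate 1 was at 1.47 to 9.45 times the CPM of NTGF replicate 2, with a median ratio of 6.56. LTAF replicate 2 was at a median of 6.38 times LTAF replicate 1 in the same members, within a range of 1.22 to 10.8.

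The mean over the other 30 members separated by the growth temperature and hardly by replicate. Their mean log2 CPM was 0.84, 0.89 and 0.84 in LTAF, and 1.01, 0.91 and 0.93 in LTA. It was 1.85, 1.77 and 1.86 in NTGF, and 1.99, 1.95 and 1.99 in NTG. By this mean the libraries of both acclimated groups lay below all libraries of both unacclimated groups, though LTAF below NTGF is the choosing contrast. Not every member did so: in 21 of the 30 every LTA library was below every NTG library, where 31.2% of all tested models were. That LTAF replicate 2 and NTGF replicate 1 do not stand apart in these means is bound up with the split, which took out the members with NTGF replicate 1 highest and LTAF replicate 3 lowest. Single members among the 30 did have a high NTGF replicate 1, such as TraesCS6B01G048300, named after its values were seen, with 7.26, 0.851 and 1.97 CPM in NTGF.

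**Figure D2:**
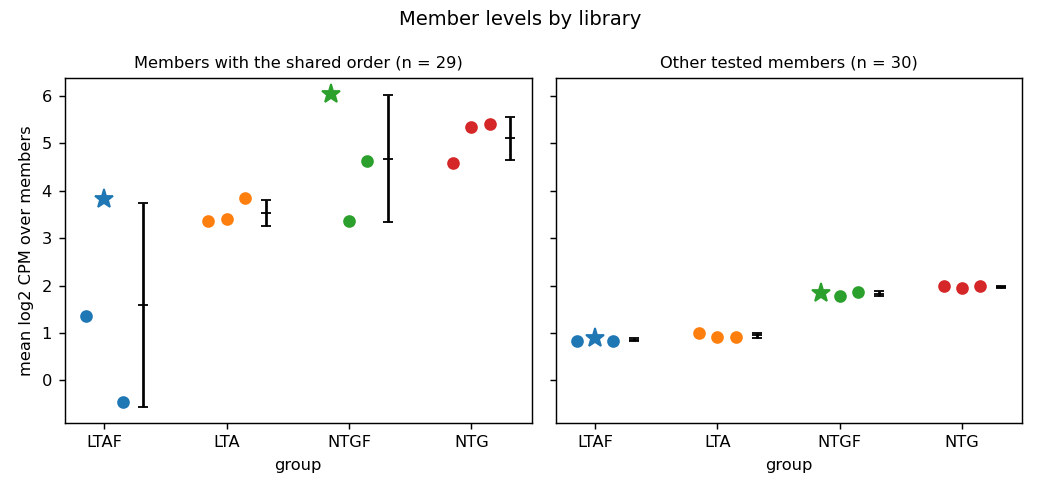
Mean log2 CPM over the 29 members with the shared order (left) and over the other 30 tested members (right) in each library, by group; stars are LTAF replicate 2 and NTGF replicate 1, circles the other libraries, and black bars the group mean ± SD (n = 3). On the left the LTAF libraries run from -0.45 to 3.83, and on the right from 0.84 to 0.89.

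In the first run the members with the shared order included TraesCS6B01G048600, TraesCS6B01G049000 and TraesCS6B01G049400, to which the table gives no function. TraesCS6B01G049400 had 4.68, 31.4 and 0.870 CPM in LTAF replicates 1, 2 and 3, 28.8, 25.8 and 31.5 CPM in LTA, 171, 27.1 and 88.4 CPM in NTGF, and 48.3, 98.4 and 97.1 CPM in NTG. LTAF replicate 2 lay within the LTA range and above NTGF replicate 2. TraesCS6B01G048600 had 1.88, 10.8 and 0.124 CPM in LTAF, 11.1, 12.1 and 15.4 CPM in LTA, 89.6, 10.6 and 24.1 CPM in NTGF, and 34.5, 64.2 and 66.8 CPM in NTG. TraesCS6B01G049000 had 1.77, 19.0 and 0.497 CPM in LTAF, 15.2, 13.9 and 15.8 CPM in LTA, 103, 17.6 and 45.9 CPM in NTGF, and 39.6, 64.5 and 68.8 CPM in NTG. In all 3 models every LTA library was below every NTG library, while LTAF and NTGF overlapped through LTAF replicate 2 and NTGF replicate 2.

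The second and the third run also held members with the shared order. TraesCS6B01G079000 had 9.18, 70.4 and 1.12 CPM in LTAF, 44.4, 47.1 and 68.6 CPM in LTA, 313, 43.7 and 118 CPM in NTGF, and 101, 172 and 182 CPM in NTG. TraesCS6B01G078200, with the highest mean CPM in the second run, had 42.7, 169 and 18.9 CPM in LTAF, 120, 127 and 166 CPM in LTA, 473, 84.4 and 187 CPM in NTGF, and 172, 294 and 301 CPM in NTG. It varied less between libraries than TraesCS6B01G079000, with the same libraries at the top and bottom. In the third run TraesCS6B01G082600 had 7.70, 39.4 and 1.18 CPM in LTAF, 35.2, 37.7 and 52.0 CPM in LTA, 188, 23.9 and 70.6 CPM in NTGF, and 71.2, 128 and 118 CPM in NTG. TraesCS6B01G082800 had 0.399, 3.65 and 0 CPM in LTAF, 3.52, 5.44 and 6.82 CPM in LTA, 34.2, 4.15 and 7.32 CPM in NTGF, and 16.7, 26.8 and 27.5 CPM in NTG. Its LTAF libraries held 71 counts together, and all 3 were below every NTGF library.

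The likeness of these members across runs was measured against a profile, the mean of the centred log2 CPM of the 9 shared-order members of the first run. The profile stood at -2.53, 0.20 and -4.70 log2 units in LTAF replicates 1, 2 and 3, at -0.22, -0.20 and 0.15 in LTA, at 2.39, -0.36 and 1.15 in NTGF, and at 0.78, 1.69 and 1.65 in NTG. A model was said to track it when it lay within 2-fold of the profile in each of the 12 libraries and had a mean of at least 5 CPM. Of the members with that mean, 7 of 13 in the first run, 3 of 11 in the second and 9 of 13 in the third tracked it, where 0.773% of such models in the whole table did. The 7 of the first run helped to make the profile. All 3 runs were chosen as lower in LTAF than in NTGF, a drop that the profile holds too. The share in the whole table does not allow for this, so the second and the third run are no independent check of the likeness. Under a limit of 1.5-fold, added after the data were seen, 8 members tracked the profile.

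The tracking members sat close together. In the first run 7 of the 8 tested high-confidence models from TraesCS6B01G048500 to TraesCS6B01G049400 tracked the profile, and in the third run 9 of the 13 from TraesCS6B01G081600 to TraesCS6B01G084300 did. In the second run they were TraesCS6B01G078900, TraesCS6B01G079000 and TraesCS6B01G079200. Between the first and second run 1 of the 33 tested high-confidence models with a mean of at least 5 CPM tracked the profile, and 5 of all 87 tested (5.75%) had the shared order, near the 6.42% of all tested models. None of the 6 tested high-confidence models between the second and the third run had the shared order. Nor did the 11 tested low-confidence models numbered inside the runs. Whether the numbers of these low-confidence models place them among the members was not checked. The runs were cut on LTAF against NTGF, and the shared order and the profile use those libraries. The closeness of the tracking members and the lack of the pattern between the runs are therefore bound up with the choice.

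**Figure D3:**
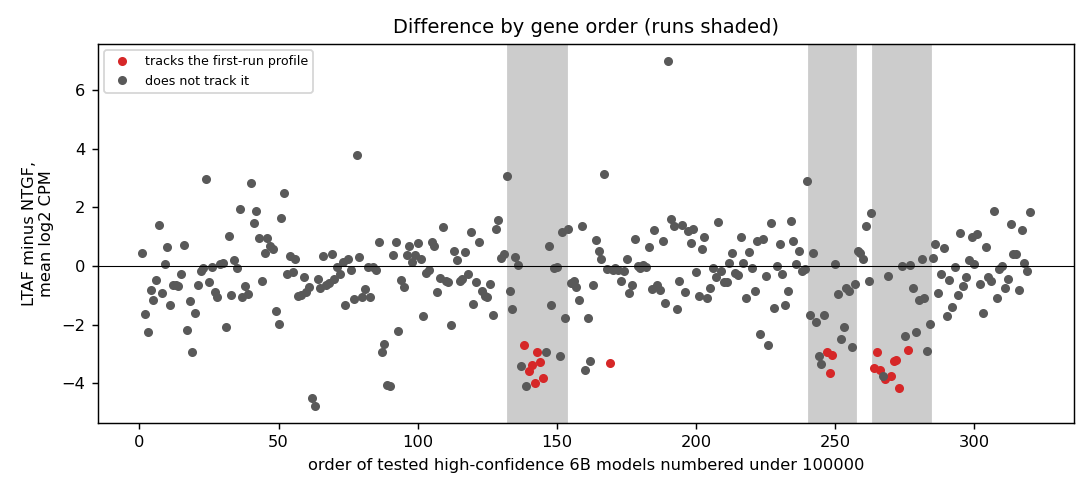
Mean log2 CPM in LTAF minus that in NTGF for each tested high-confidence 6B model numbered under 100000, in gene order, with the 3 runs shaded. Red points track the profile of the first run; 19 of them are members, and they lie among members near or above 0.

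Outside the runs, 217 models tracked the same profile. By chromosome, 6B had the most with 30 (19 members and 11 others), followed by 23 on 1A, 21 on 1B, 19 each on 6A and 6D, and 17 on 1D. Each of the other chromosomes had 4 to 13. The densest stretch outside 6B was on 6A, where 8 of the 9 tested high-confidence models from TraesCS6A01G034300 to TraesCS6A01G035200 tracked it, and another lay on 1D, with 6 of the 16 from TraesCS1D01G364400 to TraesCS1D01G366600. Whether reads shared between near-identical copies add to this likeness was not tested, since how the authors assigned such reads is not given in the sources used.

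**Figure D4:**
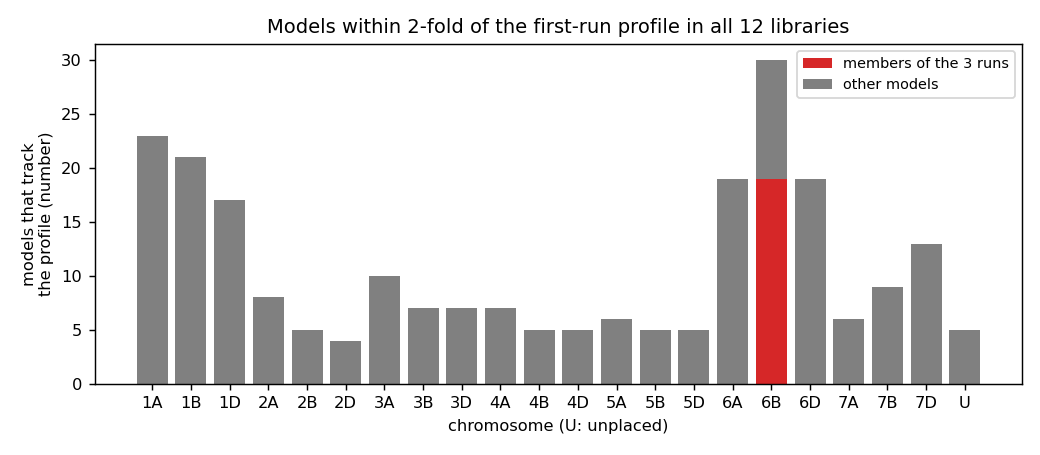
Number of models on each chromosome (U, unplaced) that lie within 2-fold of the profile of the first run in all 12 libraries, among models with a mean of at least 5 CPM. The 19 members (red) are part of the 30 on 6B, and chromosomes of groups 1 and 6 hold 17 to 30 each.

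The LTA and NTG libraries took no part in choosing the members, and the comparison of cold acclimation with growth at 20 °C could therefore be tested. It is still not free of the choice, which favours models that are lower in acclimated plants with or without freezing. The shares of all tested models given beside those of the members do not allow for this. Most members were lower in LTA: in 47 of 59 every LTA library was below every NTG library, which is 79.7% of them, where 31.2% of all tested models were. The median log2 fold change was -1.5 over the tested members and -0.06 over all tested models. The run means differed by -1.25, -1.29 and -1.35 log2 units, and by -1.20 at the least when any single library was left out. With edgeR's quasi-likelihood test and Benjamini-Hochberg adjustment, 13 members fell and 2 rose, where 18.1% of all tested models fell and 20.0% rose. The 13 are 22.0% of the tested members, a share near the background.

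The number of members that fell differed widely between settings. The fit shares 1 estimate of spread over all 4 groups, the LTAF and NTGF groups included, and the part of this in the counts was not tested apart from the number of libraries and the scaling. In a fit of the LTA and NTG libraries alone 43 members fell (72.9%), where 24.6% of all tested models did. Without LTAF replicate 2 the number was 29 (49.2%, background 22.6%), and without LTAF replicate 2 and NTGF replicate 1 together it was 38 (64.4%, background 24.0%). Without LTA replicate 2 it was 8 (13.6%, background 13.3%). With no TMM scaling, which shifted all differences of this comparison by -0.35 log2 units, 23 fell (39.0%, background 32.1%).

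Among the shared-order members 2 of 29 fell by that test, where 18.1% of all tested models did. All 29 had a negative log2 fold change, between -2.44 and -0.70 with a median of -1.57. It was negative in 36720 of the 69693 tested models. The 2 that fell were TraesCS6B01G078400 and TraesCS6B01G088500, the second named after its values were seen. TraesCS6B01G088500 had 20.2, 20.1 and 20.2 CPM in LTA, against 28.1, 35.1 and 35.3 CPM in NTG, with no overlap (log2 fold change -0.70 ± 0.18 SE, edgeR adjusted p = 0.00972). TraesCS6B01G078400 had 8.41, 8.99 and 10.9 CPM in LTA, against 32.9, 51.6 and 48.0 CPM in NTG (log2 fold change -2.22 ± 0.71 SE, edgeR adjusted p = 0.0294). Its call was lost when any of the LTA libraries, NTG replicate 2 or NTG replicate 3 was left out, with adjusted p of 0.0633 to 0.0875. TraesCS6B01G049400 did not pass (-1.5 ± 0.94 SE, edgeR adjusted p = 0.228), although its LTA and NTG libraries did not overlap, and it passed in the fit of LTA and NTG alone (adjusted p = 0.00375).

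Of the 30 other members 11 fell and 2 rose in LTA, where 18.1% and 20.0% of all tested models did. The split uses the LTAF and NTGF libraries, which also enter the shared estimate of spread. The numbers that fell in the 2 sets are therefore not compared. In the first run the deepest fall was that of TraesCS6B01G051100, whose function is not given by the table. It had 12.5, 6.69 and 7.77 CPM in LTA, against 170, 137 and 172 CPM in NTG (log2 fold change -4.15 ± 0.46 SE, edgeR adjusted p = 5.33e-05). After freezing it had 6.61, 10.1 and 5.78 CPM in LTAF, against 119, 32.4 and 62.2 CPM in NTGF. Every acclimated library of this model was below every unacclimated one. TraesCS6B01G050700 fell less, with 13.2, 9.84 and 13.2 CPM in LTA, against 24.1, 30.9 and 25.4 CPM in NTG (-1.15 ± 0.34 SE, edgeR adjusted p = 0.021), and its call was lost without LTA replicate 2 (adjusted p = 0.0773) or NTG replicate 2 (0.0665). It had 24.0, 9.24 and 10.4 CPM in LTAF, against 9.40, 18.2 and 14.9 CPM in NTGF, and LTAF spanned the whole NTGF range.

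The last tested member of the first run, TraesCS6B01G051900, was at the edge of detection. It had 0.330, 0.0999 and 0 CPM in LTA, against 1.46, 0.766 and 1.27 CPM in NTG, from 8 and 85 counts (-2.99 ± 0.83 SE, edgeR adjusted p = 0.0141). The call was lost without LTA replicate 2 (adjusted p = 0.0548). Its LTAF libraries held 2 counts together and its NTGF libraries 23.

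In the second run the falls were led by 2 members without the shared order. TraesCS6B01G080000 had 0.330, 0.599 and 0.577 CPM in LTA, against 13.7, 4.14 and 7.25 CPM in NTG (-4.03 ± 0.73 SE, edgeR adjusted p = 0.00157). In the frozen groups it had 1.25, 0.627 and 2.36 CPM in LTAF, against 6.23, 5.43 and 21.2 CPM in NTGF, and its highest NTGF library was replicate 3, not replicate 1. TraesCS6B01G078800 had 0.495, 1.85 and 1.16 CPM in LTA, against 7.02, 4.91 and 5.51 CPM in NTG (-2.30 ± 0.52 SE, edgeR adjusted p = 0.00511). It had 1.43, 3.42 and 1.80 CPM in LTAF, against 3.53, 7.34 and 12.1 CPM in NTGF, with LTAF replicate 2 just below NTGF replicate 1.

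TraesCS6B01G078600 had the lowest fitted LTAF against NTGF value of the second run and was uneven in the groups without freezing too. It had 5.94, 0.300 and 1.47 CPM in LTA, against 1.84, 14.8 and 9.23 CPM in NTG, and these groups overlapped (-1.75 ± 0.97 SE, edgeR adjusted p = 0.177). Its values were 1.08, 1.25 and 0.311 CPM in LTAF, against 22.4, 4.31 and 6.98 CPM in NTGF. All LTAF libraries were below all NTGF libraries there.

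In the third run TraesCS6B01G088900, its last member, fell most. It had 0.660, 1.65 and 1.10 CPM in LTA, against 13.4, 13.3 and 16.5 CPM in NTG (-3.65 ± 0.28 SE, edgeR adjusted p = 6.13e-06). With freezing it had 3.08, 2.74 and 3.11 CPM in LTAF, against 13.7, 8.94 and 13.6 CPM in NTGF. The LTAF libraries were close to one another and lay above every LTA library and below every unacclimated one. TraesCS6B01G082900 had 1.59, 2.45 and 3.31 CPM in LTA, against 7.14, 5.59 and 6.22 CPM in NTG (-1.36 ± 0.43 SE, edgeR adjusted p = 0.025), and its call was lost without LTA replicate 1 or 2 or NTG replicate 1 or 3 (adjusted p of 0.0552 to 0.0947). Its frozen groups overlapped, at 2.68, 1.54 and 4.10 CPM in LTAF and 1.23, 3.46 and 3.94 CPM in NTGF.

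Both members that rose in LTA lay among members that were lower. TraesCS6B01G084400 had 6.38, 6.59 and 5.93 CPM in LTA, against 2.15, 2.38 and 2.21 CPM in NTG (1.48 ± 0.17 SE, edgeR adjusted p = 5.13e-05). After freezing its levels were alike, at 4.16, 4.33 and 4.60 CPM in LTAF and 3.94, 5.11 and 3.77 CPM in NTGF, and these groups overlapped. TraesCS6B01G051800, named after its values were seen, had 4.01, 5.19 and 2.89 CPM in LTA, against 1.46, 1.69 and 1.65 CPM in NTG (1.33 ± 0.36 SE, edgeR adjusted p = 0.0124). It was also the 1 member called higher in LTAF against NTGF, with 4.73, 1.65 and 4.23 CPM in LTAF, of which replicate 2 lay within the NTGF values of 1.18, 1.81 and 1.24 CPM. That call was lost without LTAF replicate 1, LTAF replicate 3 or NTGF replicate 1 and in a fit of these groups alone, and its call in LTA against NTG was lost without LTA replicate 2.

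**Figure D5:**
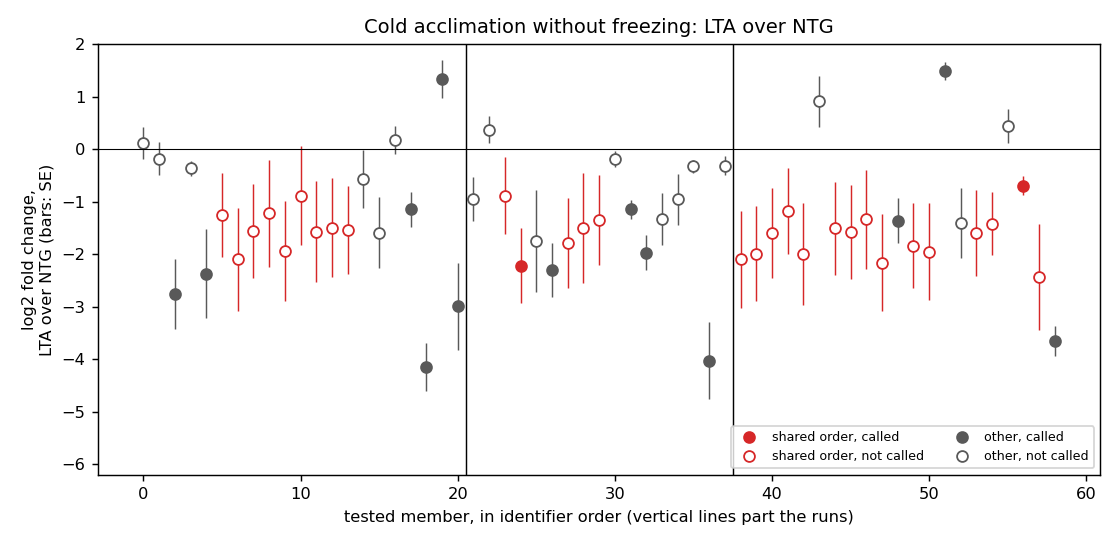
Fitted log2 fold change of LTA over NTG ± SE for each of the 59 tested members in identifier order, with lines between runs; filled points passed an adjusted p of 0.05 and red points have the shared order. The 29 red points lie between -2.44 and -0.70 with wide bars, and the called members without that order lie between -4.15 and 1.48.

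Some members varied little over the libraries. Among the 11 other members with a mean of at least 5 CPM, 5 varied by no more than 3-fold over the 12 libraries, although 3 of these 5 were called in a comparison with a frozen group. TraesCS6B01G048200 and TraesCS6B01G079900 were called in NTGF against NTG, and TraesCS6B01G079900 and TraesCS6B01G080700 were called lower in LTAF against NTGF. TraesCS6B01G079400 had 19.0, 12.7 and 18.2 CPM in LTAF, 13.7, 13.7 and 12.1 CPM in LTA, 14.1, 15.7 and 17.1 CPM in NTGF, and 15.8, 13.9 and 15.4 CPM in NTG. Its highest library was at 1.57 times its lowest. TraesCS6B01G048200 had 25.3, 27.3 and 22.1 CPM in LTAF, 27.7, 26.4 and 25.9 CPM in LTA, 27.9, 21.5 and 24.3 CPM in NTGF, and 35.4, 38.4 and 29.5 CPM in NTG. Its LTA libraries were all below its NTG libraries, but the difference did not pass (-0.37 ± 0.15 SE, edgeR adjusted p = 0.0686).

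Freezing after acclimation, LTAF against LTA, gave run means of -1.05, -0.59 and -1.30 log2 units, and these rested on LTAF replicates 1 and 3. Without LTAF replicate 2 they were -1.66, -0.93 and -2.07, and without LTAF replicate 3 they were -0.57, -0.31 and -0.60. By edgeR 0 members fell and 1 rose, where 1.92% and 3.99% of all tested models did. At an unadjusted p under 0.05, 3 members were lower and 2 higher, where 6634 and 7950 of the 69693 tested models were, and DESeq2 called 0 lower (background 3.18%). Without LTAF replicate 2 edgeR called 13 lower (background 5.75%), and without LTAF replicate 2 and NTGF replicate 1 together 26 (background 9.15%). The LTAF libraries belong to the choosing contrast, and nothing is read from these counts. The interaction term of the same fit is the response to freezing in acclimated plants minus that in unacclimated plants. It called 2 members higher and 1 lower, where 5.12% and 5.91% of all tested models were. The term holds the choosing contrast, so nothing is read from these counts either.

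Freezing without acclimation, NTGF against NTG, gave run means of -0.37, -0.05 and -0.40 log2 units. They came to -0.68, -0.23 and -0.90 when NTGF replicate 1 was left out, and to -0.08, 0.18 and 0.06 when NTGF replicate 2 was, so the direction in the second and the third run depended on that library. In this comparison 3 members rose and 1 fell, where 14.2% and 11.7% of all tested models did. Those that rose were TraesCS6B01G047400, TraesCS6B01G079900 and TraesCS6B01G084400, and TraesCS6B01G048200 fell; TraesCS6B01G079900 was named after its values were seen. TraesCS6B01G079900 had 13.6, 12.8 and 13.9 CPM in NTGF, against 9.40, 9.31 and 9.89 CPM in NTG, with no overlap. TraesCS6B01G047400, the first member of the first run, had 4.60, 9.95 and 4.39 CPM in NTGF, against 3.49, 3.30 and 2.97 CPM in NTG. The comparison shares its NTG libraries with LTA against NTG and its NTGF libraries with the choosing contrast, and nothing is read from its counts.

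Library by library, the drop below the NTG level was deepest in LTAF replicates 1 and 3. Of the 53 members with an NTG mean of at least 1 CPM, 36 in LTAF replicate 1, 11 in LTAF replicate 2 and 36 in LTAF replicate 3 were more than 4 times below that mean. In LTA the numbers were 16, 18 and 10, and in NTGF they were 2, 10 and 1. In LTAF these are 67.9%, 20.8% and 67.9% of the members, against 8.87%, 7.25% and 10.1% of all tested high-confidence models with that mean. In LTA they are 30.2%, 34.0% and 18.9%, against 7.98%, 6.77% and 6.75%. In NTGF they are 3.77%, 18.9% and 1.89%, against 5.64%, 4.92% and 3.76%. The shares of replicates 1 and 3 rest on 2 and 1 members, too few to be read against the background. The LTAF and NTGF libraries belong to the choosing contrast, so their shares beside the background follow in part from the choice. LTAF replicate 2 was close to the LTA libraries by this count, and NTGF replicate 2, not replicate 1, was the low one of its group. No member exceeded 4 times the NTG mean in any library, where 0.0271% to 5.16% of all tested high-confidence models did, depending on the library.

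The ends of the runs were set on LTAF against NTGF, so a lack of the drop just outside them follows from the choice, and the nearest tested high-confidence models are given for their values only. Below the first run TraesCS6B01G046800 had 0.456, 2.0 and 0.435 CPM in LTAF, 0.934, 0.449 and 0.525 CPM in LTA, and 0 counts in all NTGF and NTG libraries. Above it TraesCS6B01G052300 had 3.93, 2.40 and 2.43 CPM in LTAF, against 0.613, 1.81 and 1.30 CPM in NTGF. Both were higher in LTAF than in NTGF without overlap. Below the second run TraesCS6B01G077800 had 15.4, 3.99 and 15.3 CPM in LTAF, against 0.613, 1.33 and 2.14 CPM in NTGF, and LTAF replicate 2 again stood apart from the other LTAF libraries. Between the second and the third run TraesCS6B01G080800 had 1.20, 1.08 and 1.06 CPM in LTAF, against 0.460, 0.905 and 0.957 CPM in NTGF, and TraesCS6B01G081500 had 3.76, 3.48 and 3.73 CPM in LTAF, against 1.23, 1.01 and 0.732 CPM in NTGF. Beyond the third run TraesCS6B01G089000 had 0.627, 0.798 and 0.684 CPM in LTAF, against 0.511, 1.12 and 0.282 CPM in NTGF, and these overlapped.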

How the data were processed

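The deposited table holds raw counts of reads for each gene model, as whole numbers without normalization and with 1 column per library, per the file headers. Per the labels' protocols, RNA from crowns was isolated with Trizol and libraries followed standard Illumina protocols. How reads were aligned and counted, on which genome build, and how reads matching several gene copies were treated is not given in the sources used. Chromosome, order and confidence class were read from the identifiers, which no available table matched to names or sequences.

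After filterByExpr with a minimum count of 10, 69693 models remained, and libraries were scaled by TMM. These hold at least 99.38% of each library's counts. The 4 group means were fitted over all 12 libraries by edgeR 4.0.16 under R 4.3.3, using the robust quasi-likelihood test and Benjamini-Hochberg adjustment over all tested models at 0.05. The common biological coefficient of variation was 0.273. Log2 CPM used a prior count of 2. CPM does not correct for gene length, so levels were not compared between members. Of these steps only the edgeR comparison of LTA against NTG was tested on simulated counts, which had the same spread in all groups. The shared order, the profile and the counts per library were not tested in that way.

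The members and lists were chosen with earlier results of these data known. Named members were, per run and with at least 5 CPM in the highest group, the 3 lowest and 2 highest in LTAF against NTGF, the 2 of highest mean CPM, the 2 largest called changes per direction in LTA against NTG, and the first and last tested member with their nearest tested neighbours outside. Others are marked as named after their values were seen. Alternatives were another scaling, no filter, DESeq2 1.42.0, a replicate block, fits of fewer groups, left-out libraries, and limits for the profile.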

Additional observations from a re-analysis of the deposited data

Results flagged for a closer look

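By the interaction term of the edgeR fit, 2 of the named members were called. The term is the response to freezing in acclimated plants minus that in unacclimated plants. It holds the contrast that chose the members. TraesCS6B01G084400 had a log2 fold change of -0.53 for LTAF against LTA and 0.93 for NTGF against NTG, a difference of -1.45 (edgeR adjusted p = 0.00707). TraesCS6B01G088900 had 1.37 for LTAF against LTA and -0.25 for NTGF against NTG, a difference of 1.63 (edgeR adjusted p = 0.0217). This call was lost with the replicate block and without LTA replicate 1 or LTA replicate 3, and its rise in LTAF against LTA was lost without LTAF replicate 1, LTAF replicate 3, LTA replicate 1 or LTA replicate 3. Over all tested members 2 interactions were called higher and 1 lower, where 5.12% and 5.91% of all tested models were. Both frozen groups took part in choosing the members, so these values are not independent of that choice. The adjusted p values do not allow for it, and no difference in response is read from them.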

How the results depend on the processing

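No named member called in LTA against NTG changed direction under the alternatives run, but the counts of calls moved. The share of all tested models called under the same setting follows each count in brackets, except beside the ranges over left-out libraries. With library totals in place of TMM, LTA against NTG gave 23 lower (32.1%), LTAF against LTA 1 lower (2.64%) and NTGF against NTG 1 higher (6.58%) and 5 lower (20.9%), and the LTA minus NTG run means were -1.58, -1.62 and -1.68. With no filter on low counts LTAF against NTGF gave 16 lower (8.87%), the LTA minus NTG run means were -1.02, -0.93 and -0.73, and the second run's LTAF minus NTGF mean was -1.14; all 102 members then enter. With members of at least 1 CPM the interaction gave 1 higher (5.12%). Without LTAF replicate 2 and NTGF replicate 1 together, LTA against NTG gave 38 lower (24.0%), LTAF against LTA 3 higher (10.1%) and 26 lower (9.15%), NTGF against NTG 8 lower (14.2%) and the interaction 2 lower (9.42%). DESeq2 gave 4 lower (12.4%) in NTGF against NTG and 2 lower (8.63%) in the interaction. Fits of only the groups compared gave 43 lower (24.6%) in LTA against NTG, 1 higher (8.35%) in NTGF against NTG, and 0 higher (12.2%) and 11 lower (10.9%) in LTAF against NTGF. A 2-fold minimum left 0 higher (6.98%) and 0 lower (8.64%) in NTGF against NTG. The median over members gave -1.67 for LTA minus NTG in the first run, and summed CPM gave -1.58 in the first and -1.09 in the second. Limits of 3-fold and 1.5-fold left 359 and 91 models outside the runs on the profile, and the 1.5-fold limit left 8 members. Where no construction shows it, the cause was not tested.

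Leaving out 1 library at a time, the calls ran from 1 to 2 higher and 8 to 29 lower in LTA against NTG, 0 to 2 higher and 0 to 13 lower in LTAF against LTA, 1 to 4 higher and 0 to 3 lower in NTGF against NTG, 0 to 1 higher and 12 to 43 lower in LTAF against NTGF, and 0 to 3 higher and 1 to 4 lower in the interaction. The run means, from the first to the third run, ranged from -1.34 to -1.20, -1.39 to -1.24 and -1.53 to -1.22 for LTA minus NTG. For LTAF minus LTA they ranged from -1.66 to -0.57, -0.93 to -0.31 and -2.07 to -0.60, and for NTGF minus NTG from -0.68 to -0.08, -0.23 to 0.18 and -0.90 to 0.06. For LTAF minus NTGF they ranged from -2.52 to -1.45, -2.16 to -1.56 and -3.00 to -1.55.

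Replicate numbers did not pair the libraries: 2 of 18 same-number pairs had a correlation of deviations over 0.1 (range -0.437 to 0.201). With the replicate block 16 members were lower in LTAF against NTGF (16.2%), 11 in LTA against NTG (15.1%), and 0 interactions were higher (2.09%). TraesCS6B01G078400 did not pass in LTA against NTG with the block (edgeR adjusted p = 0.0509) or with no filter on low counts (0.0965).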
